A study of Mus musculus with 9 samples.

Results

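The genes described here make and break down prostaglandins. They were taken by name from a count table of senescent mouse embryonic fibroblasts, and 9 of its 24062 genes belong to the set: Pla2g4a, Ptgs1, Ptgs2, Ptges, Ptges2, Ptges3, Ptgis, Ptgds and Hpgd. All 9 were in the table, and 8 of them had counts high enough to be tested. The exception was Ptgds, the lipocalin-type prostaglandin D synthase.

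The cells were primary fibroblasts grown from C57BL/6 embryos and made senescent by gamma irradiation. A lentivirus carrying a short hairpin RNA was added on day 10 after irradiation. The shRela-1 and shRela-2 groups received different hairpins against Rela, which encodes p65, a subunit of the transcription factor NF-kB, and the shScr group received a scrambled hairpin. Each group held 3 samples, so irradiation and lentivirus were common to all 9, no unirradiated or uninfected sample is compared here, and the sources used here do not give the time between infection and harvest. Titles of shScr samples hold a dataset tag that those of the shRela samples lack, so any batch that goes with the tag cannot be told apart from the knockdown. The labels do not say whether the replicates were separate cultures, so the p-values rest on a spread between samples that may be technical.

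Prostaglandins are short-lived lipids that act on nearby cells. A phospholipase cuts arachidonic acid from membrane lipids, a cyclooxygenase turns it into prostaglandin H2, and terminal synthases convert this intermediate into prostaglandin E2, prostacyclin or prostaglandin D2. Dehydrogenases then inactivate the products. Fibroblasts are known producers of prostaglandin E2, and Ptgs2, the inducible cyclooxygenase, is a textbook target of NF-kB.

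Library totals ran from 49774667 to 67963506 counts. Rela lay between 13.2 and 14.1 CPM (counts scaled to a common library size) in shRela-1, between 13.4 and 14.8 CPM in shRela-2 and between 83.2 and 86.8 CPM in shScr. All 10 fibroblast markers checked were present, with summed levels of 59973 to 63111 CPM in shRela-1, 52313 to 55263 CPM in shRela-2 and 53324 to 58901 CPM in shScr. Of 9 macrophage markers, 8 were found in the table, at summed levels of 381 to 499 CPM in shRela-1, 334 to 506 CPM in shRela-2 and 391 to 562 CPM in shScr. In bulk RNA, fewer cells of a type and less RNA per cell cannot be told apart.

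In a fit without pairing of the samples, 2 of the 8 tested genes fell with each hairpin, near the share of all genes called (24.7% for shRela-1, 30.9% for shRela-2). With shRela-1, the prostaglandin E synthase Ptges and the prostacyclin synthase Ptgis fell. With shRela-2, the cyclooxygenase Ptgs1 and the phospholipase Pla2g4a fell. The inducible cyclooxygenase Ptgs2, the most abundant of these transcripts per length, did not pass the test against shScr with either hairpin in this fit. With the replicate number as a block, Ptgs2 was called higher for shRela-1 (adjusted p = 8.50e-10, edgeR) and lower for shRela-2 (0.0490), and Ptgis was lower with both hairpins.

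Genes were tested in edgeR with its quasi-likelihood test, and a gene is said to have risen or fallen where its p-value, Benjamini-Hochberg adjusted over all 15369 genes tested, was under 0.05. Fold changes are on the log2 scale, with the standard error of the fit. With shRela-1, 2 of the 8 tested genes fell and 0 rose (0 also by DESeq2 and limma voom, and 1 higher at an unadjusted p under 0.05), where 24.7% of all genes were called in either direction and 12.4% fell. With shRela-2, 2 of 8 fell and 0 rose (1 by DESeq2, 0 by limma voom, and 1 higher at an unadjusted p under 0.05), where 30.9% of all genes were called and 15.4% fell. The median log2 fold changes of the 8 genes were -0.07 for shRela-1 and -0.10 for shRela-2. All genes had medians of 0.00 and -0.00. The shares called, 2 of 8 each, lie near those of all genes. Both comparisons use the same 3 shScr samples and are not independent of each other.

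Direct comparison of the hairpins gave 5 calls among the 8 genes, where 39.9% of all genes were called. Ptges and Ptgis were higher in shRela-2 than in shRela-1 (2 of 8, where 20% of all genes rose), and Pla2g4a, Ptgs1 and Ptgs2 were lower (3 of 8, where 19.9% fell). In the mean of both hairpins against shScr, 3 of the 8 fell (Ptgs1, Ptges and Ptgis), where 22.8% of all genes were called and 12.2% fell. The hairpins differed for all 3 of these genes, and each was called against shScr with 1 hairpin only, so the mean averages unlike values. When only the compared groups were fitted, with both hairpins as 1 group, 0 of the 8 genes were called in the mean (edgeR; 1, Ptgis, at an unadjusted p under 0.05).

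**Figure D1:**
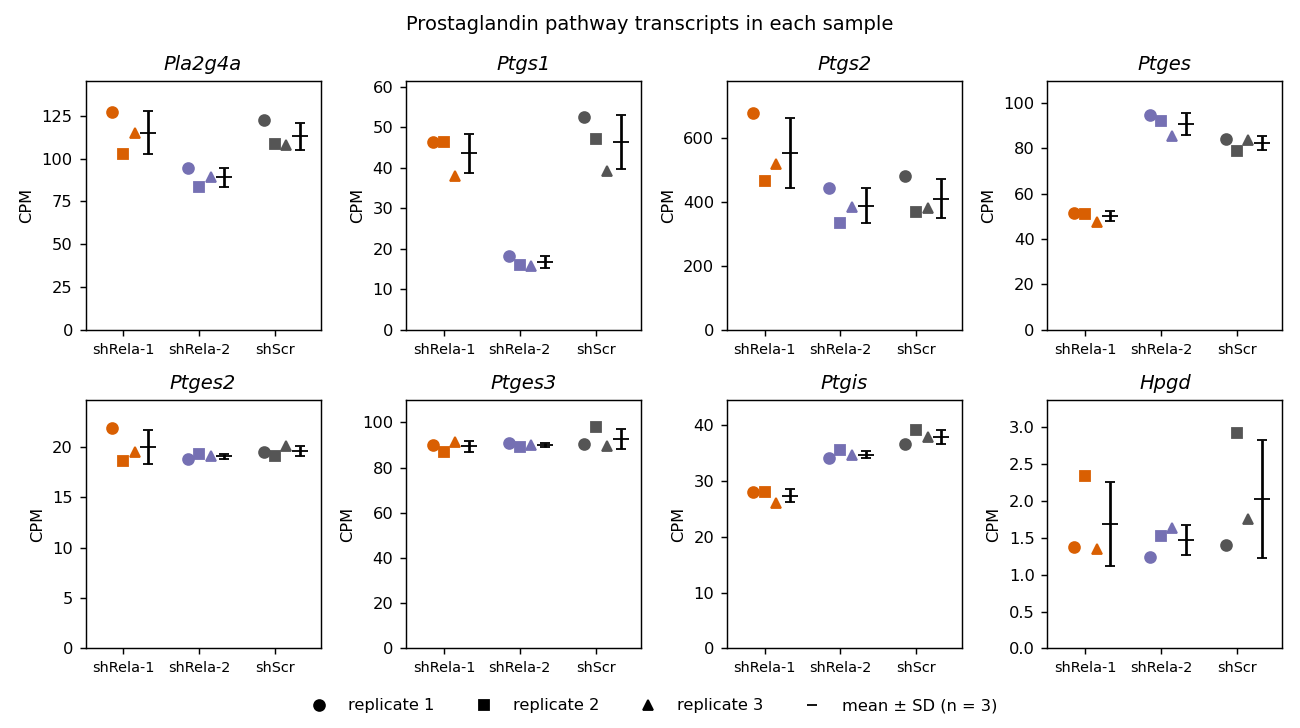
CPM of the 8 tested prostaglandin genes in each of the 9 samples, by group (shRela-1, shRela-2, shScr), with the symbol giving the replicate number and the bar the mean ± SD (n = 3). Ptges is low in the 3 shRela-1 samples (47.5 to 51.4 CPM) and Ptgs1 in the 3 shRela-2 samples (15.8 to 18.4 CPM), while Ptges2 and Ptges3 overlap in all groups.

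**Figure D2:**
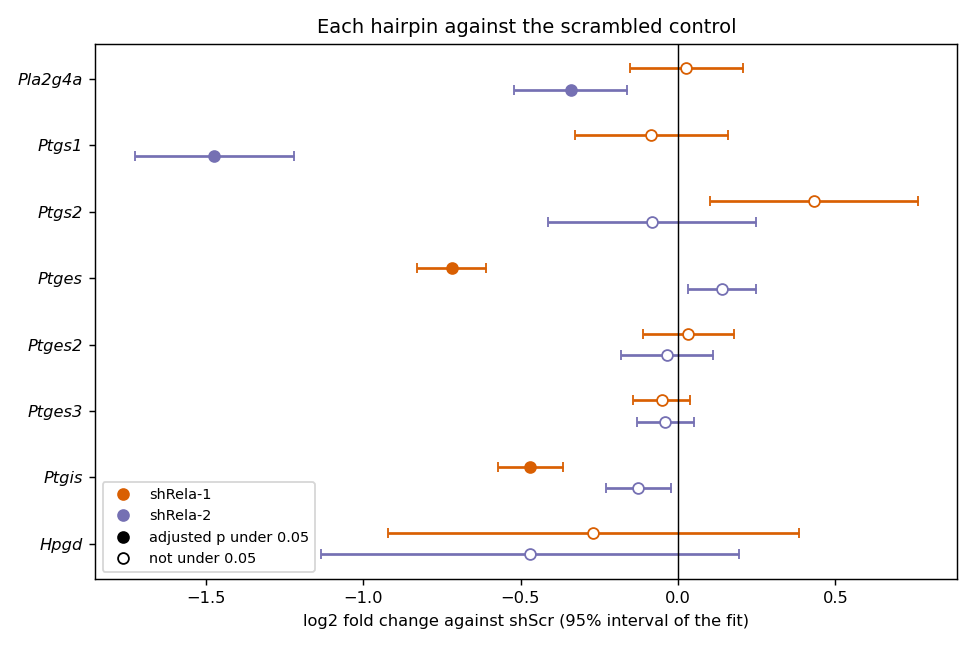
Log2 fold change of each tested gene against shScr with its 95% interval from the edgeR fit, for shRela-1 and shRela-2, where filled points have an adjusted p under 0.05. The filled points are Ptges and Ptgis with shRela-1 and Pla2g4a and Ptgs1 with shRela-2, and no gene is filled for both hairpins.

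Pla2g4a encodes cytosolic phospholipase A2 alpha, which frees arachidonic acid from membranes when calcium rises. It lies on chromosome 1, 149829618 to 149961290, minus strand (mm10), on the same chromosome as Ptgs2. The samples held 127, 102 and 115 CPM with shRela-1, 94.5, 83.5 and 89.3 CPM with shRela-2, and 122, 109 and 108 CPM with shScr (replicates 1 to 3). All 3 shRela-2 samples lay below all shRela-1 and all shScr samples, and the shRela-1 and shScr samples overlapped. The fall with shRela-2 was -0.34 ± 0.081 (adjusted p = 0.00862, edgeR's quasi-likelihood test, Benjamini-Hochberg adjusted). With shRela-1 the value was 0.03 ± 0.080, with a 95% interval from -0.15 to 0.20. The direct difference, shRela-2 over shRela-1, was -0.37 ± 0.081 (adjusted p = 0.00415, edgeR).

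Ptgs1 encodes the constitutive cyclooxygenase, COX-1, which many tissues keep at a steady level. Its place is chromosome 2, 36230426 to 36252272, plus strand (mm10). It stood at 46.4, 46.5 and 38.1 CPM with shRela-1, at 18.4, 16 and 15.8 CPM with shRela-2, and at 52.5, 47.2 and 39.3 CPM with shScr. The shRela-2 samples were far below the others, and the shRela-1 samples overlapped those of shScr. Relative to the shScr mean, 39.6%, 34.5% and 34.0% was left in the 3 shRela-2 samples. The fall of -1.47 ± 0.11 was the largest change of the 8 genes against shScr (95% interval -1.73 to -1.22, adjusted p = 1.08e-05, edgeR). The value with shRela-1 was -0.08 ± 0.11 (interval -0.33 to 0.16), and the hairpins differed by -1.39 ± 0.11 (adjusted p = 5.33e-06, edgeR).

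Ptgs1 is also the cyclooxygenase of platelets, so markers of that lineage are given here. Their sum (Pf4, Itga2b, Gp9 and Ppbp) was 67.3, 37.3 and 37.4 CPM with shRela-1, 33.5, 20.6 and 23.3 CPM with shRela-2, and 44.8, 26.0 and 25 CPM with shScr. It was lowest with shRela-2 within each replicate number, and Itga2b, an integrin of platelets, fell with shRela-2 (-0.43 ± 0.11, adjusted p = 0.0117, edgeR). Gp9 lay between 0 and 6 counts per sample, and Ppbp made up most of the sum. The part of these markers in the Ptgs1 result was not tested. Of the Ptgs1 exons, 148 of 3884 bases overlap Gm43621 on the opposite strand, and the library kit does not mark strand, so reads there cannot be told apart.

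Ptgs2 encodes COX-2, the cyclooxygenase that inflammatory signals switch on. It lies on chromosome 1, 150100031 to 150108227, plus strand. Its promoter from RefSeq (GRCm38.p6, chr1:150099781-150100080, plus strand) is shown because the gene is a known NF-kB target that was not called with either hairpin in the unpaired fit and did not move alike with both in the paired one. Capitals mark the matches to the motifs searched on both strands: the C/EBP palindrome TTGCGCAA, the core of the cAMP response element (CRE) CGTCA, and the E-box CACGTG.
Ptgs2 promoter: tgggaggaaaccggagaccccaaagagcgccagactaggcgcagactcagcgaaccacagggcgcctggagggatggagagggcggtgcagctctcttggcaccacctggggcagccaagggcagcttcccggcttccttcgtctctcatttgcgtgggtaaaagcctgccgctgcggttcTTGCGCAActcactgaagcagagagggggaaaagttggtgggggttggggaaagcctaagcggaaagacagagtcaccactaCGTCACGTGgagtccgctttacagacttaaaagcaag
Counting the RefSeq start as base 1 and the base before it as -1, the C/EBP palindrome covers bases -69 to -62. The CRE core covers bases 14 to 18 and overlaps the E-box at bases 17 to 22. The palindrome is in 0.183% of the 32851 promoter windows of the same length, the CRE core in 20.8% and the E-box in 7.15%. Neither the kB consensus of NF-kB (in 8.46% of windows) nor the TATA box TATAAA (in 13.6%) has a match in this window. The window runs from 250 bases before the start to 50 bases after it. Sites outside it were not searched, so the gene may hold kB sites elsewhere.

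Promoters of the other genes held fewer matches. RefSeq entries were found for 8 of the 9 genes, with none for Ptgis. Ptges and Ptgs1 had no match to any of the 5 motifs. The kB consensus matched in the windows of Ptges3 (bases -87 to -78) and Ptgds (bases -22 to -13), the E-box in that of Ptges2 and a TATA box in that of Hpgd. Ptges3 also held a CRE core, and the second of the 2 Pla2g4a windows held a TATA box on the reverse strand. A match describes the letters only.

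Ptgs2 stood at 677, 467 and 518 CPM with shRela-1, at 444, 335 and 384 CPM with shRela-2, and at 481, 369 and 381 CPM with shScr. The replicate 1 sample was the highest of its group in all 3 groups and replicate 2 the lowest. shRela-1 samples overlapped those of shScr, because shRela-1 replicate 2 lay below shScr replicate 1, whereas all 3 shRela-1 samples lay above all 3 shRela-2 samples. The log2 fold change with shRela-1 was 0.43 ± 0.15, which did not pass the test (interval 0.10 to 0.76, adjusted p = 0.0581, edgeR). With shRela-2 it was -0.08 ± 0.15 (interval -0.41 to 0.25). The direct difference between shRela-2 and shRela-1 was -0.51 ± 0.15 (adjusted p = 0.0185, edgeR), and it was no longer called without shRela-1 replicate 1 (adjusted p = 0.0630, edgeR), shRela-2 replicate 2 (0.0709) or shRela-2 replicate 3 (0.0535).

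Same-numbered samples moved together in Ptgs2. Divided by the shScr sample of the same number, shRela-1 gave ratios of 1.41, 1.27 and 1.36, and shRela-2 gave 0.922, 0.909 and 1.01. The shRela-1 sample was above its same-numbered control in all 3 pairs. In a fit with the replicate number as a block, Ptgs2 rose with shRela-1 (0.43 ± 0.032, adjusted p = 8.50e-10, edgeR) and was called lower with shRela-2 (-0.08 ± 0.033, adjusted p = 0.0490). With the block, 3 of the 8 genes were called with shRela-1, where 39.3% of all genes were, and 5 of 8 with shRela-2, where 44.4% were. In the mean of both hairpins it called 5 of 8 (37.5% of all genes), and between shRela-2 and shRela-1 again 5 of 8 (51.9% of all genes). Other members whose call changes in that fit are named where they are described.

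**Figure D3:**
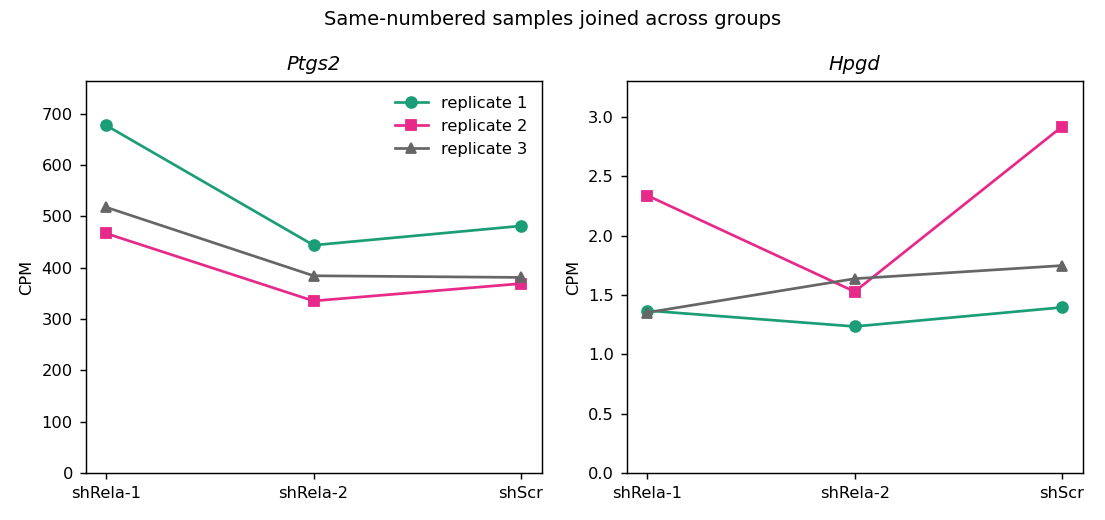
CPM of Ptgs2 (left) and Hpgd (right) in shRela-1, shRela-2 and shScr, with lines joining samples of the same replicate number. For Ptgs2 the 3 lines run nearly parallel, with replicate 1 on top in each group (677, 444 and 481 CPM), and for Hpgd replicate 2 stands apart in shRela-1 and shScr.

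Per length, the balance of the cyclooxygenases differed between groups. RPKM, which is CPM divided by exon length in kilobases, was used here, with the merged exon length of GENCODE vM21 (mm10). Ptgs2 made up 91.3 ± 1.63% of the summed cyclooxygenase RPKM with shRela-1, 95.1 ± 0.401% with shRela-2 and 88.2 ± 1.19% with shScr (SD, n = 3). The ratio of Ptgs2 to Ptgs1 was 10.8 ± 2.03 with shRela-1, 19.6 ± 1.62 with shRela-2 and 7.54 ± 0.825 with shScr. The share is not a separate test, since it is built from the same values. With shRela-2, Ptgs1 fell and Ptgs2 was not called.

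Ptges encodes microsomal prostaglandin E synthase-1, the inducible enzyme that works with COX-2 to make prostaglandin E2. It lies on chromosome 2, 30889471 to 30929863, minus strand. Its level was 51.4, 51.1 and 47.5 CPM with shRela-1, 94.7, 91.9 and 85.3 CPM with shRela-2, and 84.2, 79.0 and 83.8 CPM with shScr. The groups did not overlap: shRela-1 was lowest, and shRela-2 was just above shScr. In the 3 shRela-1 samples, 62.5%, 62.1% and 57.7% of the shScr mean was left. The change with shRela-1 was -0.72 ± 0.049 (interval -0.83 to -0.61, adjusted p = 3.63e-06, edgeR). The change with shRela-2 was 0.14 ± 0.048 (interval 0.03 to 0.25, adjusted p = 0.0511, edgeR), and with the replicate block it was called higher (adjusted p = 0.00576). Between the hairpins the difference was 0.86 ± 0.049, 1.81-fold higher in shRela-2 than in shRela-1 (adjusted p = 4.29e-07, edgeR).

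Ptges2 and Ptges3 encode the other prostaglandin E synthases. The Ptges2 product is a membrane-bound enzyme, and the Ptges3 product, also called p23, is a co-chaperone of Hsp90 as well. Ptges2 lies on chromosome 2, 32395896 to 32405772, plus strand, and Ptges3 on chromosome 10, 128058954 to 128077272, plus strand. Ptges2 held 21.9, 18.7 and 19.5 CPM with shRela-1, 18.9, 19.3 and 19.1 CPM with shRela-2, and 19.5, 19.1 and 20.1 CPM with shScr. Ptges3 held 89.8, 86.8 and 91.4 CPM with shRela-1, 91.0, 89.1 and 89.9 CPM with shRela-2, and 90.4, 97.7 and 89.5 CPM with shScr. All groups overlapped for both genes.

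Neither of these synthases was called in any of the comparisons. The 95% interval of Ptges2 ran from -0.11 to 0.18 with shRela-1 and from -0.18 to 0.11 with shRela-2. For Ptges3 it ran from -0.14 to 0.04 with shRela-1 and from -0.13 to 0.05 with shRela-2. These intervals leave out changes of the size seen for Ptges with shRela-1. The annotation holds a processed pseudogene, Ptges3-ps, on chromosome 6, and the sources used here do not say how reads shared with it were counted.

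Ptgis encodes prostacyclin synthase, known from the vessel wall, where its product relaxes muscle and restrains platelets. Its place is chromosome 2, 167191805 to 167240604, minus strand. It stood at 28.0, 28.0 and 26.0 CPM with shRela-1, at 34.1, 35.4 and 34.6 CPM with shRela-2, and at 36.7, 39.1 and 37.8 CPM with shScr. The groups did not overlap, with shRela-1 lowest and shScr highest. With shRela-1 the gene fell by 0.47 ± 0.047 on the log2 scale (adjusted p = 5.32e-05, edgeR). The value with shRela-2 was -0.13 ± 0.046 (interval -0.23 to -0.02, adjusted p = 0.0644, edgeR), and it was called with the replicate block (adjusted p = 0.0242). The mean of both hairpins was -0.30 ± 0.040 (adjusted p = 5.03e-04, edgeR). That call was lost when only the compared groups were fitted (adjusted p = 0.191, edgeR).

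Markers of endothelium and smooth muscle are set beside Ptgis because cells of the vessel wall make prostacyclin. The summed level of the 7 markers was 7.25 to 8.33 CPM with shRela-1, 9.0 to 11.1 CPM with shRela-2 and 8.85 to 10.1 CPM with shScr. This endothelial sum was lower in the shRela-1 samples than in the shScr samples. Egfl7, the most abundant of these markers, stood at a mean of 2.80 CPM with shRela-1 and 4.42 CPM with shScr. Pecam1, Cdh5 and Tek also had lower means with shRela-1. Kdr (2.23 against 2.00 CPM) and Emcn (1.30 against 1.11 CPM) had higher means with shRela-1 than with shScr. In the unpaired edgeR fit, 0 of the 6 tested markers were called with shRela-1 (1 by DESeq2, 0 by limma voom, and 1 lower at an unadjusted p under 0.05). With the replicate block, 1 fell. Among all genes, 24.7% were called with shRela-1, or 39.3% with the block. Tie1 was at 0 in all 3 shScr samples. The summed level of the 4 smooth muscle markers went the other way, at 9793 to 11799 CPM with shRela-1, 6534 to 7666 CPM with shRela-2 and 7196 to 8492 CPM with shScr. Acta2 made up most of that sum, at means of 9110 CPM with shRela-1, 5994 CPM with shRela-2 and 6542 CPM with shScr. Bulk counts do not show which cells these transcripts came from. With shRela-1, 2 of the 4 rose (4 with the replicate block), where 12.3% of all genes rose in the unpaired fit. The part of these markers in the Ptgis result was not tested. Of the Ptgis exons, 156 of 2567 bases overlap 1110018N20Rik on the opposite strand, so reads there cannot be told apart.

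Groups did not overlap for 2 of the 8 genes with shRela-1 against shScr, where this held for 39.6% of all genes. With shRela-2 against shScr it held for 4 of 8 (Pla2g4a, Ptgs1, Ptges and Ptgis), and for 44.1% of all genes. Between shRela-2 and shRela-1 it held for 5 of 8, and for 50.1% of all genes.

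Ptgds was close to absent. Its counts were 0, 2 and 0 in shRela-1, 0, 0 and 2 in shRela-2, and 0, 0 and 2 in shScr. A floor of 3 counts, the limit that a count of 0 allows, equals 0.0445 to 0.0598 CPM in these libraries. All 9 samples lay below that floor, so no fold change is given. Expression below the floor was not detectable at this depth.

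Hpgd encodes 15-hydroxyprostaglandin dehydrogenase, which carries out the first step of prostaglandin inactivation. It lies on chromosome 8, 56294585 to 56321043, plus strand. Counts were low, at 85, 150 and 83 in shRela-1, at 64, 95 and 92 in shRela-2, and at 70, 197 and 110 in shScr. In CPM these were 1.37, 2.34 and 1.35 in shRela-1, 1.24, 1.53 and 1.64 in shRela-2, and 1.4, 2.92 and 1.75 in shScr. The groups overlapped, and replicate 2 was the highest sample of the shRela-1 and shScr groups. The log2 values against shScr were -0.27 ± 0.29 with shRela-1 (interval -0.92 to 0.38) and -0.47 ± 0.30 with shRela-2 (interval -1.13 to 0.19). Such wide intervals leave room for changes as large as that of Ptges in either knockdown.

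Macrophage markers followed the replicate number too. Their sum was 381, 499 and 430 CPM with shRela-1, 334, 506 and 357 CPM with shRela-2, and 391, 562 and 414 CPM with shScr. It was highest in replicate 2 of every group, and within each number it was lower with shRela-2 than with shScr. Lyz2 made up most of the sum, at means of 345 CPM with shRela-1, 324 CPM with shRela-2 and 366 CPM with shScr. Of the 8 markers, 1 fell with shRela-2 (6 with the replicate block) and 0 were called with shRela-1 (edgeR, DESeq2 and limma voom, and 0 at an unadjusted p under 0.05). Among all genes, 15.4% fell with shRela-2, and 44.4% were called in either direction with the block. Macrophages are known to express Hpgd, and the part of these markers in the values of Hpgd was not tested.

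In order of level per length, Ptgs2 came first in every group, at 121 ± 24.0 RPKM with shRela-1, 84.6 ± 11.9 RPKM with shRela-2 and 89.6 ± 13.5 RPKM with shScr. Ptges3 was next, at 40.3 ± 1.07 RPKM with shRela-1, 40.6 ± 0.416 RPKM with shRela-2 and 41.7 ± 2.04 RPKM with shScr. Below them in shScr came Ptges (20.9), Pla2g4a (17.7), Ptgis (14.7), Ptgs1 (11.9), Ptges2 (3.87) and Hpgd (1.20), as mean RPKM, with no overlap between the samples of neighbouring genes.

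That order changed with each hairpin. With shRela-1, Pla2g4a (18 RPKM) stood above Ptges (12.7 RPKM), and the samples of Ptgs1 (11.2 RPKM) and Ptgis (10.7 RPKM) overlapped. With shRela-2, the samples of Pla2g4a (13.9 RPKM) and Ptgis (13.5 RPKM) overlapped, and Ptgs1 dropped to 4.30 RPKM, next to Ptges2 at 3.78 RPKM. A merged exon length counts exons that these cells may not use, which lowers the RPKM of such a gene.

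Some of these genes share letters in their 3′ UTRs. In earlier work on these same libraries, the heptamer AGGTGTA was picked as frequent among genes lower with shRela-1, and GAAGCTA among those lower with shRela-2. The sources used here do not give the hairpin sequences. Of 13872 tested genes with an annotated 3′ UTR, 1170 (8.43%) hold the first heptamer and 1307 (9.42%) the second. The genes of the set that hold one follow here from GENCODE vM21 transcripts (mm10), with the heptamer in capitals, because they include the genes with the largest fall under each hairpin.
Ptges, first site, chr2:30890897-30890925, minus strand: gtctgtatcatAGGTGTAcctggtgccca
Ptges, second site, chr2:30890570-30890598, minus strand: ttgtgagggccAGGTGTAagaacctgcca
Ptges3, chr10:128076644-128076672, plus strand: tgtcagtgttcAGGTGTAttttagcaaaa
Ptgs1, chr2:36252236-36252264, plus strand: ctgtttctcatGAAGCTAataaaattctt

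Counting from the first base of the 3′ UTR, the Ptges sites begin at bases 1663 and 1990 of 3106, the Ptges3 site at base 569 of 1186 and the Ptgs1 site at base 896 of 921. Ptges, with 2 AGGTGTA sites, fell with shRela-1, and Ptgs1, with 1 GAAGCTA site, fell with shRela-2. Ptges3 holds AGGTGTA and stood at -0.05 ± 0.041 with shRela-1 (not called). Ptgis fell with shRela-1 and Pla2g4a with shRela-2, and neither gene holds either heptamer. Ptgs2, Ptges2, Ptgds and Hpgd hold neither. The part of these letters in any of the values was not tested.

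Across all genes, holders of the heptamers were shifted under the hairpin they were picked from. Under shRela-1, AGGTGTA holders had a median log2 fold change of -0.15, against 0.00 for all genes with a 3′ UTR, and 421 of them (36%) fell, against 13.1% of all. Under shRela-2 the same holders had a median of 0.01, and 18.9% of them fell, against 16.2% of all. GAAGCTA holders had a median of -0.16 under shRela-2, where 486 (37.2%) fell against 16.2% of all. Under shRela-1 their median was 0.01, and 14.8% fell against 13.1% of all. Since the heptamers were picked on these libraries, the shifts are descriptions and carry no test.

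**Figure D4:**
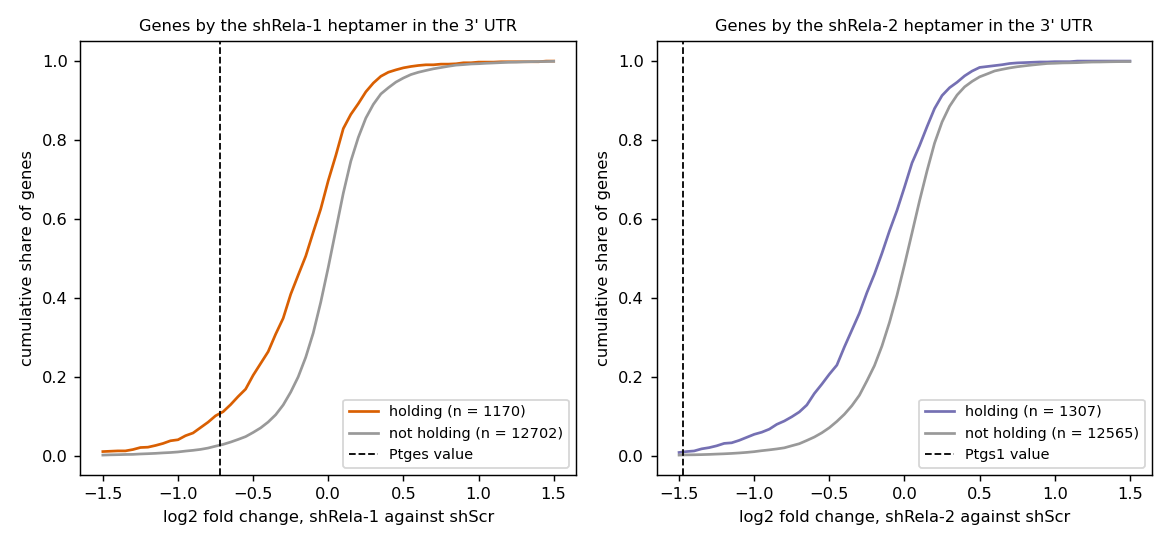
Cumulative share of genes (vertical axis) by log2 fold change against shScr (horizontal axis), for genes with and without AGGTGTA in the 3′ UTR under shRela-1 (left) and with and without GAAGCTA under shRela-2 (right), with a dashed line at the value of Ptges or Ptgs1. The curve of the 1170 or 1307 holders lies to the left of the curve of the other genes, and Ptges at -0.72 and Ptgs1 at -1.47 lie in its lower tail.

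Genes with the expression pattern most like that of Ptgs2 and Ptges were looked up over the 9 samples, by Pearson correlation of log2 CPM among the 11249 genes whose mean log2 CPM reached 1. For Ptgs2 these were Qsox1 (r = 0.982), Fabp5 (0.981), Dpep1 (0.979), Sh3gl3 (0.977) and Gapdh (0.974). For Ptges they were Ndn (r = 0.996), Faf2 (0.995), Sec31a (0.995), Pigt (0.994) and Ssbp3 (0.994). Of those 5, only Faf2 holds AGGTGTA in its 3′ UTR, and none of the 5 genes like Ptgs2 holds either heptamer. Of the 5 genes most like Ptgs1, looked up later with values known, 3 (Clcn5, Ctps2 and Msantd4) hold GAAGCTA and 1 of these, Clcn5, also holds AGGTGTA. Over all tested genes with a 3′ UTR, 9.42% hold GAAGCTA and 8.43% AGGTGTA. Genes like Ptgs1 are lower with shRela-2 by the way they were chosen, and GAAGCTA was picked among genes lower with that hairpin. The count of its holders therefore carries no test. The 9 points share groups and replicate numbers, so these values describe likeness only.

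The rest of the pathway was read from lists of other genes, 68 in the table and 54 tested. Of the 54, 4 rose and 5 fell with shRela-1, and 12 rose and 12 fell with shRela-2. With the replicate block, 10 rose and 9 fell with shRela-1, and 14 rose and 18 fell with shRela-2. Over all genes, 24.7% were called with shRela-1 and 30.9% with shRela-2, or 39.3% and 44.4% with the block. Between shRela-2 and shRela-1, 8 rose and 18 fell, where 39.9% of all genes were called (20% rose and 19.9% fell). Genes beyond the naming rule given under processing, such as Mgll, Dagla, Daglb, Acsl3, Acsl4, Ptger4, Ptgfrn, Lta4h and Ephx2, are named because they were called, after their values were seen.

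Upstream of the cyclooxygenases, the genes that supply arachidonic acid and put it back into lipids mostly fell with shRela-2. Of 8 tested, 5 fell and 1 rose with shRela-2, and 1 rose and 0 fell with shRela-1. With the replicate block, 7 fell and 1 rose with shRela-2, and 1 rose and 1 fell with shRela-1. Among all genes, 30.9% were called with shRela-2 (15.4% fell) and 24.7% with shRela-1, or 44.4% and 39.3% with the block. The list's median was -0.37 with shRela-2 and 0.02 with shRela-1, where the medians of all genes were -0.00 and 0.00. Fads1, the delta-5 desaturase that completes arachidonic acid, stood at 103 ± 9.90 CPM with shRela-1, 62.8 ± 5.94 CPM with shRela-2 and 107 ± 12.9 CPM with shScr. Mboat7, which returns arachidonic acid to phosphatidylinositol, stood at 66.6 ± 4.55 CPM with shRela-1, 39.0 ± 1.29 CPM with shRela-2 and 65.3 ± 1.91 CPM with shScr. Their falls with shRela-2 were -0.76 ± 0.099 (adjusted p = 2.54e-04, edgeR) and -0.74 ± 0.051 (adjusted p = 5.00e-06, edgeR).

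Lpcat3, a lysophospholipid acyltransferase, fell with shRela-2 by 0.28 ± 0.045 on the log2 scale. Acsl4 and Acsl3, which activate fatty acids by joining them to coenzyme A, also fell with shRela-2 (-0.40 ± 0.11 and -0.33 ± 0.097), in 12 and 11 of 15 alternatives (highest adjusted p = 0.0750 and 0.0867, edgeR, without single shScr or shRela-2 samples). Elovl5, a fatty acid elongase, rose with both hairpins (0.29 ± 0.039 for shRela-1, 0.13 ± 0.039 for shRela-2). The rise with shRela-2 held in 10 of 15 alternatives (highest adjusted p = 0.123, edgeR), and was lost in the fit of only the compared groups.

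Among 15 tested genes of other phospholipases and of arachidonate release, 3 rose and 2 fell with shRela-1, and 4 rose and 1 fell with shRela-2. As a share, 33.3% of the list was called with each hairpin, where 24.7% and 30.9% of all genes were. Pla2g15, the lysosomal phospholipase A2, rose with both hairpins (0.47 ± 0.045 for shRela-1, 0.25 ± 0.045 for shRela-2). Abhd12, a lysophospholipid hydrolase, rose with both as well (0.17 ± 0.039 for shRela-1, 0.24 ± 0.039 for shRela-2). Plaa, named as an activator of phospholipase A2, fell with both (-0.20 ± 0.037 for shRela-1, -0.35 ± 0.037 for shRela-2).

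Anxa1, known as an inhibitor of cytosolic phospholipase A2, stood at 1486 ± 17.6 CPM with shRela-1, 1232 ± 13.7 CPM with shRela-2 and 1166 ± 60.2 CPM with shScr. It rose with shRela-1 (0.35 ± 0.042, adjusted p = 1.86e-04, edgeR), and its value with shRela-2 was 0.08 ± 0.042 (adjusted p = 0.191). Mgll, which hydrolyses monoacylglycerols, fell with shRela-1 (-0.36 ± 0.096). Dagla and Daglb, the diacylglycerol lipases, rose with shRela-2 (0.51 ± 0.092 and 0.29 ± 0.059).

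Of 6 other prostanoid synthases, 5 were tested. None was called with shRela-1 in the unpaired edgeR fit (1 fell by DESeq2 and by limma voom, and 1 was lower at an unadjusted p under 0.05). With shRela-2, 1 gene was called higher, Fam213b, which encodes a prostamide and prostaglandin F synthase (0.26 ± 0.087, adjusted p = 0.0450, edgeR). That call held in 7 of 15 alternatives (highest adjusted p = 0.157). Among all genes, 24.7% were called with shRela-1 and 30.9% with shRela-2. Hpgds, the hematopoietic prostaglandin D synthase, stood at 2.13 ± 0.512 CPM with shRela-1, 1.76 ± 0.368 CPM with shRela-2 and 2.52 ± 0.0835 CPM with shScr. It was not called in the unpaired fit, and with the replicate block it was called lower with shRela-2. Tbxas1, thromboxane synthase, stood at 2.50 ± 0.342 CPM with shRela-1, 1.82 ± 0.0227 CPM with shRela-2 and 2.35 ± 0.394 CPM with shScr. Cbr3, a carbonyl reductase, stood at 14.2 ± 0.783 CPM with shRela-1, 16.7 ± 1.05 CPM with shRela-2 and 16.9 ± 1.79 CPM with shScr. It was not called in the unpaired fit (-0.25 ± 0.087 with shRela-1, adjusted p = 0.0599, edgeR). Cbr3 is the gene that fell with shRela-1 by DESeq2 and by limma voom, and it was also called lower with the replicate block. Cbr1, its relative, stood at 27.3 ± 1.68 CPM with shRela-1, 30.04 ± 1.41 CPM with shRela-2 and 28.7 ± 0.949 CPM with shScr. Akr1b3, aldose reductase, was listed at 0 in every sample.

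Of 6 other breakdown enzymes and transporters, none was called with shRela-1 (0 by edgeR, DESeq2 and limma voom, and 1 higher at an unadjusted p under 0.05), and 2 rose and 2 fell with shRela-2. With the replicate block, 2 rose and 1 fell with shRela-1. Among all genes, 24.7% were called with shRela-1 (39.3% with the block) and 30.9% with shRela-2. Zadh2, a prostaglandin reductase, fell with shRela-2 (-0.48 ± 0.041, adjusted p = 1.76e-05, edgeR), and Ptgr2, another reductase, rose with it (0.26 ± 0.058). Abcc4, a pump that exports prostaglandins, rose with shRela-2 (0.38 ± 0.073). Akr1c18, a hydroxysteroid dehydrogenase, fell with shRela-2 (-1.54 ± 0.36, adjusted p = 0.00806, edgeR) at low levels of 0.612 ± 0.187 CPM with shRela-1, 0.224 ± 0.0570 CPM with shRela-2 and 0.657 ± 0.175 CPM with shScr.

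In the list of prostanoid receptors, which also holds the partner protein Ptgfrn, 2 of 9 tested genes rose and 3 fell with shRela-2. Over all genes, 15.4% rose and 15.4% fell. Ptger2 and Ptger4, the receptors that raise cAMP when they bind prostaglandin E2, fell with shRela-2 (-0.78 ± 0.22 and -0.41 ± 0.090). Ptger2 was low, at 0.934 ± 0.0554 CPM with shRela-1, 0.543 ± 0.0692 CPM with shRela-2 and 0.930 ± 0.186 CPM with shScr. Its call held in 11 of 15 alternatives. Ptgfr, the prostaglandin F receptor, stood at 12.0 ± 2.10 CPM with shRela-1, 6.94 ± 0.478 CPM with shRela-2 and 11.0 ± 1.99 CPM with shScr, and fell with shRela-2 (-0.66 ± 0.15, adjusted p = 0.00724, edgeR). Tbxa2r, the thromboxane receptor, rose with shRela-2 (0.67 ± 0.16, adjusted p = 0.00972, edgeR).

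Ptgfrn, a partner protein of the prostaglandin F receptor, was the 1 gene of this list called with shRela-1 in the unpaired fit. It fell with shRela-1 (-0.16 ± 0.036) and rose with shRela-2 (0.22 ± 0.036). Ptgir, the prostacyclin receptor, stood at 3.61 ± 0.324 CPM with shRela-1, 3.23 ± 0.392 CPM with shRela-2 and 4.09 ± 0.660 CPM with shScr. It was not called in the unpaired fit, and with the replicate block it was called lower with shRela-2. Over the list, the block gave 2 rises and 1 fall with shRela-1, and 3 rises and 4 falls with shRela-2. It called 39.3% and 44.4% of all genes.

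In the neighbouring lipoxygenase and leukotriene branch, which uses the same arachidonic acid, 2 of 11 tested genes fell with shRela-1, and 2 rose and 1 fell with shRela-2. The shares of all genes called were 24.7% and 30.9%. Ephx2, soluble epoxide hydrolase, fell with shRela-1 (-0.38 ± 0.080) and rose with shRela-2 (0.31 ± 0.079). Lta4h, leukotriene A4 hydrolase, did the same (-0.19 ± 0.054 for shRela-1, 0.18 ± 0.054 for shRela-2). Each of these calls held in 10 of 15 alternatives (highest adjusted p = 0.0962 for shRela-1 and 0.106 for shRela-2, edgeR). Ltb4r1, the high-affinity receptor of leukotriene B4, fell with shRela-2 (-0.61 ± 0.16) at 1.71 ± 0.196 CPM with shRela-1, 1.31 ± 0.120 CPM with shRela-2 and 1.99 ± 0.210 CPM with shScr.

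Alox5, 5-lipoxygenase, stood at 4.32 ± 0.808 CPM with shRela-1, 4.23 ± 1.13 CPM with shRela-2 and 5.30 ± 1.08 CPM with shScr, and was not called in the unpaired fit. Ltb4r2 and Alox12 were not called against shScr in that fit either, with log2 values of 0.07 ± 0.16 and -0.14 ± 0.34 in shRela-1 and of -0.45 ± 0.17 and -0.32 ± 0.35 in shRela-2. With the replicate block, Alox5 was called lower with shRela-1. Over the list, the block gave 3 falls and 0 rises with shRela-1, and 2 of each with shRela-2. It called 39.3% and 44.4% of all genes.

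**Figure D5:**
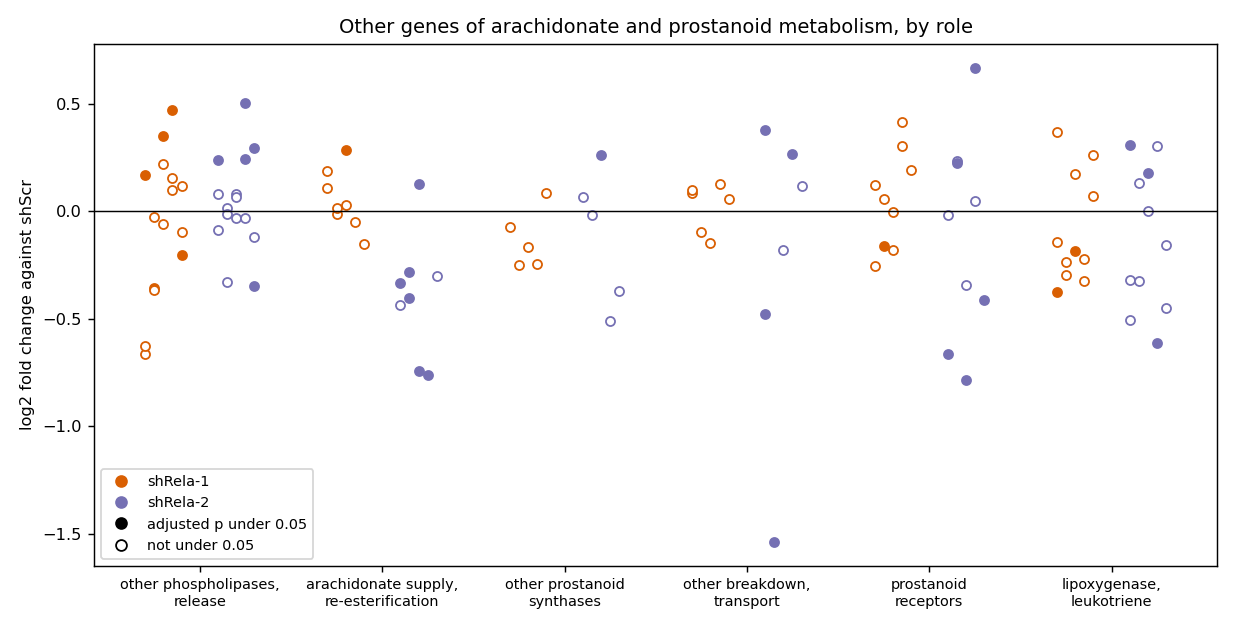
Log2 fold change against shScr of the 54 other tested genes, by role, for shRela-1 and shRela-2, with filled points for an adjusted p under 0.05 (edgeR). The genes of arachidonate supply lie mostly below 0 with shRela-2 and near 0 with shRela-1, and the lowest point is Akr1c18 with shRela-2, at -1.54.

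Heptamers were also looked up in these 54 genes, all with an annotated 3′ UTR. AGGTGTA is held by 2 of them, Acsl4 and Slco2a1, and 0 of these fell with shRela-1. GAAGCTA is held by 5, Fads1, Mboat7, Ptger4, Ptger1 and Ggt5, and 3 of these (Fads1, Mboat7 and Ptger4) are among the 12 that fell with shRela-2. The other 9 that fell with shRela-2 hold no GAAGCTA. Over all genes with a 3′ UTR, 37.2% of GAAGCTA holders fell with shRela-2 and 36% of AGGTGTA holders with shRela-1. Each heptamer was picked from genes lower with that hairpin, so these counts carry no test.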

How the data were processed

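Raw counts, as the authors deposited them, were given per gene symbol in 1 column per sample. Build mm10 and the tools featureCounts 1.4.6, Subread, Bowtie2 2.2.6 and TopHat2 2.0.14 are named, without settings, in the submitters' processing notes. The kit (TruSeq RNA v2, per the labels' protocols) does not mark strand. Even numbers prevailed among low counts (2764 values of 1 and 7984 values of 2), so counts may not be independent fragments.

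Groups came from the sample titles. Genes passing filterByExpr (15369) were scaled by TMM (factors 0.975 to 1.02) and fitted together over 9 samples in edgeR 4.0.16 (R 4.3.3) with glmQLFit and glmQLFTest, two-sided, which was tested on simulated data. CPM uses TMM-scaled totals. Alternatives were RLE scaling, no filter, a replicate block, DESeq2 1.42.0, limma voom 3.58.1, only the groups compared, and leaving out each sample. Same-numbered samples deviated together (correlations 0.189 to 0.415 in 9 pairs, -0.306 to 0.0459 in 18 other pairs), so the numbers in the titles pair the samples.

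The genes and lists were chosen with earlier results of these data known. The naming rule took all 9 genes, Rela, and per pathway list the 4 genes with the smallest p in the mean of both hairpins, plus any called gene with an absolute log2 fold change of at least 1 against shScr.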

Additional observations from a re-analysis of the deposited data

Results flagged for a closer look

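Effects of the hairpins differed by the direct test of shRela-2 against shRela-1 (edgeR's quasi-likelihood test, Benjamini-Hochberg adjusted) for 5 of the 8 tested prostaglandin genes, where 39.9% of all genes were called. As log2 differences, shRela-2 minus shRela-1, the values were -1.39 for Ptgs1, -0.515 for Ptgs2, -0.368 for Pla2g4a, 0.858 for Ptges and 0.343 for Ptgis. The 3 samples of each hairpin did not overlap for any of these 5 genes, and for 50.1% of all genes they did not overlap either. The Ptgs2 difference was no longer called without shRela-1 replicate 1 (adjusted p = 0.0630, edgeR), shRela-2 replicate 2 (0.0709) or shRela-2 replicate 3 (0.0535). Both hairpins left Rela at a similar level, 13.6 ± 0.487 CPM with shRela-1 and 13.9 ± 0.768 CPM with shRela-2 (SD, n = 3).

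The same test also separated the hairpins for many of the other pathway genes and AU-rich binders called against shScr. Of the 54 other pathway genes tested, 26 were called between the hairpins, where 39.9% of all genes were. Both tests rest partly on the same samples, so picking genes called against shScr favours genes that differ. Ptgr2, Abhd12, Tbxa2r, Ltb4r1, Zfp36 and Zfp36l2 were called against shScr but not between the hairpins. In arachidonate supply the differences were -0.771 for Mboat7, -0.714 for Fads1, -0.441 for Acsl3, -0.392 for Acsl4, -0.297 for Lpcat3 and -0.159 for Elovl5. In arachidonate release they were -0.271 for Anxa1, -0.226 for Pla2g15, -0.146 for Plaa, 0.346 for Mgll, 0.349 for Dagla and 0.174 for Daglb. Among synthases, breakdown enzymes and transporters they were 0.424 for Fam213b, -0.578 for Zadh2, -1.44 for Akr1c18 and 0.292 for Abcc4. The receptor list gave -0.782 for Ptger2, -0.606 for Ptger4, -0.784 for Ptgfr and 0.385 for the partner protein Ptgfrn. The leukotriene branch gave 0.366 for Lta4h and 0.685 for Ephx2. Binders of AU-rich mRNAs gave -0.325 for Zfp36l1, -0.312 for Khsrp, -0.146 for Hnrnpd and 0.528 for Tia1. The Daglb difference was called in only 6 of 15 alternatives. Those of Acsl4 and Hnrnpd were called in 12, and those of Mgll and Ptger2 in 14. The other differences listed here were called in all 15.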

How the results depend on the processing

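Of 32 values of the prostaglandin genes (8 genes in 4 comparisons), 22 kept their call under all 15 alternatives, and none reversed. With the replicate block, 5 of the 8 genes were called with shRela-2 and 5 for the mean of the hairpins, and over all genes 6034 were called with shRela-1 and 5763 in the mean. With the block, 3797 of the 3799 calls with shRela-1 remained. Under it the mean of both hairpins was also called lower for Pla2g4a (adjusted p = 3.44e-04) and higher for Ptgs2 (4.97e-05, edgeR). When only the groups compared were fitted, with both hairpins as 1 group, 440 genes were called in the mean and 0 of the 8 prostaglandin genes (edgeR; Ptgis alone had an unadjusted p under 0.05), against 3 by DESeq2 and 3 by limma voom in the fit of 3 groups. That fit counts the difference between the hairpins as spread. Leaving out single samples gave 2329 to 3335 calls in the mean, lowest without shScr replicate 3, 2745 to 3824 with shRela-1, 3766 to 4757 with shRela-2 and 5280 to 6152 between hairpins. Among the prostaglandin genes those ranges were 3 to 4, 2 to 3, 2 to 3 and 4 to 5.

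Single calls changed as follows (adjusted p, edgeR unless named). Ptgs2 with shRela-1 was called with no filter (0.0388) and without shScr replicate 1 (0.0260), shRela-1 replicate 2 (0.0333) or shRela-2 replicate 1 (0.0485), over a range from 8.50e-10 to 0.193 in all alternatives. Ptges with shRela-2 was called by DESeq2 (0.0464) and without shRela-2 replicate 3 (0.0199), over a range from 0.00576 to 0.185. Ptgis with shRela-2 was called without shRela-1 replicate 3 (0.0448), over a range from 0.0242 to 0.192, and Pla2g4a in the mean without shRela-1 replicate 1 (0.0425). Of 40 calls of other pathway genes and AU-rich binders against shScr, 29 kept their call under all alternatives, 11 lost it under at least 1, and none changed sign. Those that lost it were Fam213b, Elovl5, Acsl3, Acsl4, Ptger2, Ltb4r1, Ephx2, Lta4h and Zfp36l2 with shRela-2, and Mgll and Lta4h with shRela-1.

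Depth limits Ptgds, below 3 counts in every sample. Hpgd had 64 to 197 counts, and its samples spread widely within shRela-1 and shScr.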

Other observations

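Ptgs2 mRNA carries AU-rich elements, and proteins that bind such elements are known to set its stability. Of 9 tested genes of such binders, 1 rose and 1 fell with shRela-1, and 1 rose and 4 fell with shRela-2, where 24.7% and 30.9% of all genes were called. By DESeq2, 2 rose and 1 fell with shRela-1, and 3 rose and 4 fell with shRela-2. The replicate block gave 2 rises and 3 falls with shRela-1, and 3 rises and 4 falls with shRela-2. It called 39.3% and 44.4% of all genes. Zfp36, tristetraprolin, which destabilises its targets, stood at 38.0 ± 3.31 CPM with shRela-1, 34.6 ± 1.56 CPM with shRela-2 and 30.4 ± 1.76 CPM with shScr (SD, n = 3). It rose with shRela-1 (log2 fold change 0.32 ± 0.068, adjusted p = 0.00601, edgeR's quasi-likelihood test, Benjamini-Hochberg adjusted), and its value with shRela-2 was 0.19 ± 0.069 (adjusted p = 0.0603). Its relatives Zfp36l1 and Zfp36l2 fell with shRela-2 (-0.29 ± 0.040 and -0.18 ± 0.058). Khsrp, a decay-promoting binder, and Hnrnpd, also called AUF1, fell with shRela-2 (-0.28 ± 0.038 and -0.19 ± 0.047). Tia1, which represses translation of its targets, fell with shRela-1 (-0.30 ± 0.045) and rose with shRela-2 (0.23 ± 0.045). In the unpaired fit, Celf2 was called higher only in the mean of both hairpins (0.27 ± 0.084, adjusted p = 0.0383, edgeR). With the replicate block it was also called higher with shRela-1. Zfp36l2, Hnrnpd and Tia1 were named after their values were seen.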
